A study of Mus musculus and Homo sapiens with 23 samples.

Results

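The genes described here are 38 mouse genes that write, erase or read histone acetylation, measured as RNA in BV2 cells, an immortalised line of microglia, the resident macrophages of the brain. The members are a fixed list of gene symbols chosen for what their proteins do, with earlier results of these data known. The deposited rows matched to a symbol were summed, except rows that were not marked OK in both libraries. They fall into 4 classes: 13 acetyltransferases, 11 zinc-dependent deacetylases, 6 sirtuins and 8 bromodomain readers. One library came from BV2 cells that had been given LPS, lipopolysaccharide from the outer membrane of Gram-negative bacteria, for 3 h, and 1 library came from unstimulated BV2 cells. The labels name no genetic change in either culture and no dose of LPS. The series asks where the acetylation mark H2BK20ac lies in several cell types and how it moves when microglia change state, and its other 21 of 23 samples were not analysed here. With 1 library per group there is no replicate check, no test and no p-value, and every difference below is a difference between these 2 libraries. Each value is an FPKM, a fragment number per length of transcript and size of library, and levels of different genes are compared on that length-scaled unit. The range in brackets after an FPKM is the interval deposited with it (95%), which covers counting and assignment of fragments inside 1 library. In RNA from a whole culture, fewer cells that transcribe a gene and less RNA per cell cannot be told apart.

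Acetyltransferases transfer an acetyl group from acetyl-CoA to lysines of histone tails, zinc-dependent deacetylases and the NAD-dependent sirtuins remove it, and bromodomains bind the acetylated lysine. The enzymes act inside large complexes, so that the same catalytic subunit serves different promoters and enhancers. In macrophages, LPS signalling through NF-kB brings the acetyltransferases p300 and CBP to inflammatory enhancers, BET bromodomain proteins bind the acetylated chromatin there, and HDAC3 with its NCoR and SMRT corepressors is known for its part in inflammatory gene control.

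Of the 38 members, 37 had a value and 33 were counted, which means that at least 1 of the 2 libraries reached an FPKM of 1. The other 4 with a value, Kat6b, Hdac7, Hdac11 and Sirt1, were below 1 FPKM in both libraries, and Hdac5 had no usable value. For Sirt1 this holds for the rows matched to its symbol. A row without a symbol at its locus, at 3.08 FPKM in the LPS library and 3.62 in the unstimulated library, was not added. If that row belongs to Sirt1, the gene would be counted. Change is given as the log2(FPKM + 1) value of the LPS library less that of the unstimulated library, a scale that understates changes of genes with low FPKM. A gene rose or fell when its change reached 1 or -1, a fold of 2 on this scale. By this rule 0 of the 33 counted members rose and 1 fell, the deacetylase gene Hdac9. That is 0.00% of the members upward and 3.03% downward, against 8.54% upward and 12.4% downward of all 10034 counted genes.

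A smaller limit of 1.5-fold on the same scale was passed upward by 2 members, Hdac1 and Brd2 (6.06%, against 13.8% of all counted genes). It was passed downward by 9 members: Kat8, Hat1, Hdac2, Hdac4, Hdac9, Hdac10, Brd1, Brd3 and Brd8 (27.3%, against 29.7%). The deposited intervals did not overlap for 23 members. The LPS value was the higher one for 5 of these, Kat5, Ncoa3, Hdac1, Sirt2 and Brd2 (15.2%, against 25.1% of all counted genes). It was the lower one for 18 (54.5%, against 48.4%). The median change of the counted members was -0.34, which is 0.10 below that of all counted genes, and with quantile normalisation it was 0.090 above. By the 1.5-fold limit and by separate intervals, the shares of members lower in the LPS library are close to those of all genes, and the shares higher in it are smaller.

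The median change of all counted genes was -0.24, so a gene with no difference from the middle of the transcriptome has a change below 0 on the deposited FPKM. Scaling that sets the median to 0 moves it up by 0.24, quantile normalisation moves the median by 0.11, and rescaling each library to TPM moves it by -0.24. Under these scalings the risen genes make up 59.1%, 53.0% and 24.8% of all genes past the size rule, against 40.7% on the deposited FPKM. Of the 33 counted members, 22 keep the sign of their change under all 3 scalings. The other 11 do not: Ep300, Kat2a, Kat2b, Kat6a, Ncoa2, Hdac3, Sirt5, Sirt6, Sirt7, Brd9 and Brpf3.

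**Figure D1:**
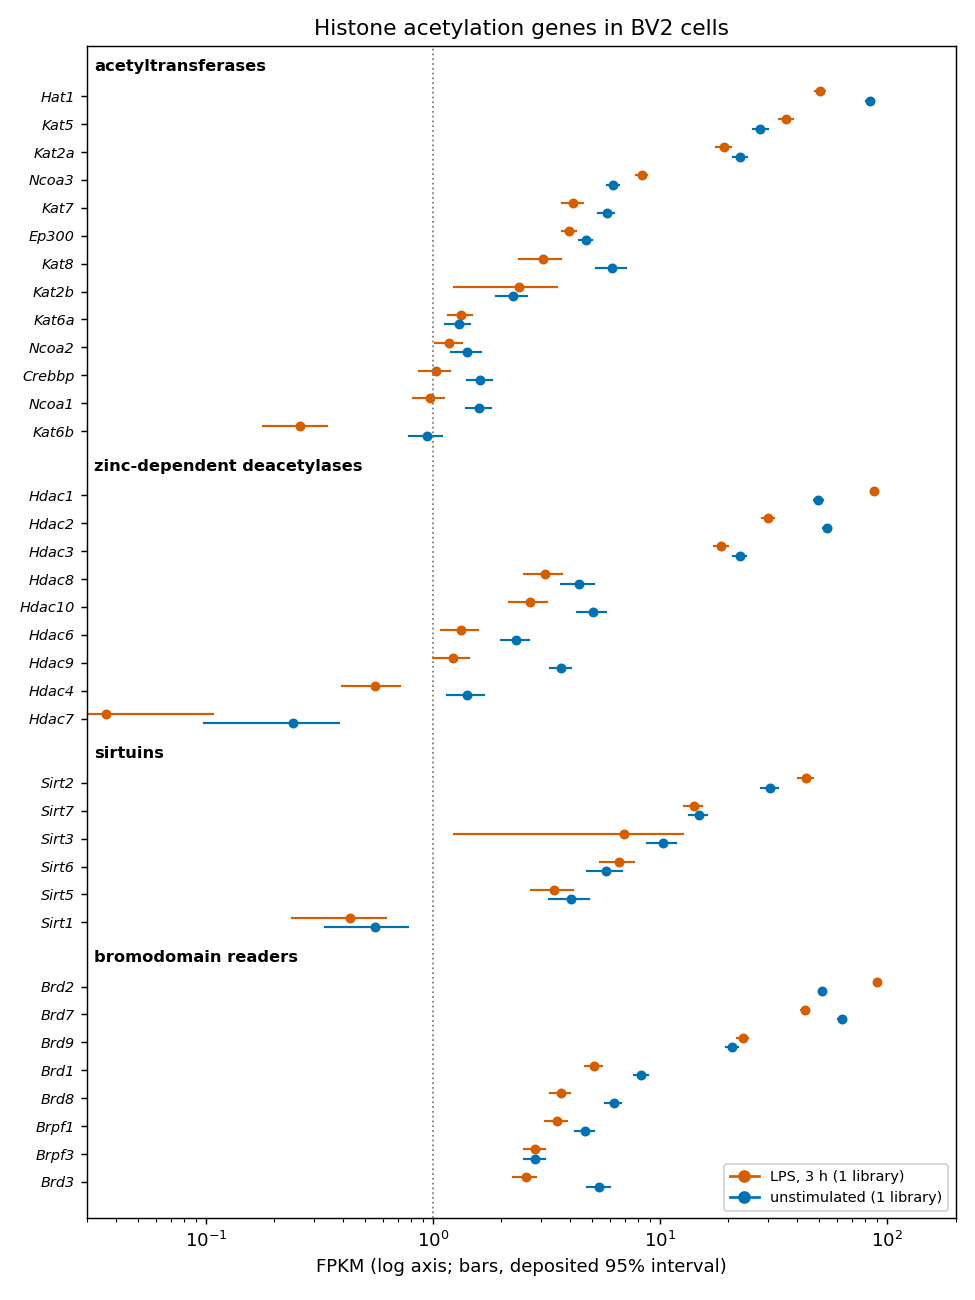
FPKM of 36 members in the LPS library (orange) and the unstimulated library (blue) on a log axis, grouped by class, with the deposited 95% interval as a bar and a dotted line at 1 FPKM. Hdac1 and Brd2 lie to the right in the LPS library, and Hdac2, Hat1 and Brd7 lie to the right in the unstimulated library. Hdac5 has no usable value and Hdac11 is at 0 in both libraries, so neither is drawn.

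Genes outside the members give the state of the cells. All 8 LPS response genes listed as controls, among them Tnf and Nos2, rose, by 4.65 to 10.10. Of the 10 microglia and macrophage markers, 9 had a value and all 9 were counted. Their summed FPKM was 8765 in the LPS library and 10449 in the unstimulated library, most of it from Lyz2 and Tyrobp. The 9 markers did not share a direction, with 4 changes above 0 and 5 below 0. Spi1 alone passed the size rule, at 707 FPKM in the LPS library and 217 in the unstimulated library. The lists of 6 neuron, 6 astrocyte and 6 oligodendrocyte markers had 0 counted genes, and their highest values were 0.394 FPKM in the LPS library and 0.457 in the unstimulated library. One of 6 fibroblast and endothelial markers, Kdr, was counted (4.79 FPKM in the LPS library and 5.45 in the unstimulated library), as was 1 of 5 lymphocyte markers, Il7r (0.591 FPKM in the LPS library and 1.77 in the unstimulated library). The part of these genes in the results below was not tested.

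Sequence is shown for 4 members, as examples, whose values separated between the libraries and that have an entry in the RefSeq promoter table (build GRCm38.p6). Other members with separate values also have entries. The spacing of transcript starts was compared with the deposited rows for Brd2 alone. These are Hdac2 and Hat1, which were lower in the LPS library, and Brd2 and Sirt2, which were higher. Each line gives the 250 bases before the start, 5′ to 3′ on the gene's strand. Capitals mark the GC box GGGCGG, the CCAAT box, the NF-kB motif and the TATA box TATAAA, each on either strand.
Hdac2, chr10:36974294-36974543, plus strand: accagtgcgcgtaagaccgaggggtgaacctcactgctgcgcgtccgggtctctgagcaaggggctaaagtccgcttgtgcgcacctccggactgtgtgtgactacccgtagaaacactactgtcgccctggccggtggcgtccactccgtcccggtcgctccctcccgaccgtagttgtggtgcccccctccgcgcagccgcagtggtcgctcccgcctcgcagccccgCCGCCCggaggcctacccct
Hat1, chr2:71389010-71389259, plus strand: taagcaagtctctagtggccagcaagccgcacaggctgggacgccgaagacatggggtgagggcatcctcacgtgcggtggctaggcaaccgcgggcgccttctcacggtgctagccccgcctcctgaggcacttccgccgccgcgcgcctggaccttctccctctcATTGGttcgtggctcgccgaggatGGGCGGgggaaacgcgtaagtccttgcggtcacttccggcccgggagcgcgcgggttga
Brd2, chr17:34122608-34122857, minus strand: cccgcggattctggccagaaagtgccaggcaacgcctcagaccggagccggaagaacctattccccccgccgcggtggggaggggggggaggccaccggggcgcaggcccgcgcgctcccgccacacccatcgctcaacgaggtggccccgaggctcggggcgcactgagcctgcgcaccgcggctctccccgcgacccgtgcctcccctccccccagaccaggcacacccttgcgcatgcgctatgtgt
Sirt2, chr7:28766502-28766751, plus strand: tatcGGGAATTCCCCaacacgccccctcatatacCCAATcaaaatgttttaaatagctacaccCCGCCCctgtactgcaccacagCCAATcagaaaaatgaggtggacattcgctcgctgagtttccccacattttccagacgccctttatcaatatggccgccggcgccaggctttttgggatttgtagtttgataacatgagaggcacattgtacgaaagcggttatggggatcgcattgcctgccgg

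The Hdac2, Hat1 and printed Brd2 windows each hold 27 CpG dinucleotides and are 68.8%, 67.6% and 73.6% G or C. The median over all 32851 windows of the table is 6 CpG dinucleotides and 52.4% G or C, so these 3 windows are CpG-rich. The printed Brd2 window is that of NM_001204973, a row with 1.28% of Brd2 FPKM in the LPS library and 1.84% in the unstimulated library. The window of the leading Brd2 row, NR_037970, holds 18 CpG dinucleotides and is 56.4% G or C. That of NM_010238 holds 12, is 65.2% G or C and has 1 GC box. The Sirt2 window holds 13 CpG dinucleotides. The NF-kB motif occurred in 2 overlapping matches near the far end of the Sirt2 window.

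Promoter entries existed for 31 of the 38 members. At least 1 window held a GC box in 26 of these members. By window, a GC box stood in 29 of their 44 (65.9%), against 32.7% of all windows and 58.3% of the 10232 windows of counted genes. A CCAAT box stood in 14 windows, of 13 members (31.8% of the 44 windows, against 33.8% of all and 35.4% of those of counted genes). TATAAA, searched on either strand, was found for 2 members, Hdac8 and Hdac9 (4.55% of windows, against 12.4% and 6.38%). The NF-kB motif was found for Sirt2 and Sirt6 (4.55%, against 3.90% and 4.49%), and the motif of the interferon-stimulated response element for Kat5 and Brd7 (4.55%, against 2.98% and 2.89%). These are matches of letters in a window and say nothing of binding.

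Among the counted acetyltransferase RNAs the largest changes were those of Kat8 and Hat1, both lower in the LPS library. With separate intervals, 7 were lower in the LPS library and 2 were higher, while 3 had overlapping intervals. Of all counted genes, 48.4% were lower and 25.1% higher with separate intervals. Of 13 members 12 were counted, 0 passed the size rule, and their median change was -0.21, which is 0.03 above the median of all counted genes. That distance lay below 0 with no filter on low values (-0.12) and with a filter at 5 FPKM (-0.18). The summed FPKM of the class was 132 in the LPS library and 166 in the unstimulated library, a ratio of 0.793, and Hat1 accounts for most of that gap. Summed over all genes the FPKM was 656058 in the LPS library and 553567 in the unstimulated library, a ratio of 1.19.

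Hat1, which acetylates newly made histone H4 before it is deposited on DNA (mm9 chr2:71227317-71279679), was the most abundant acetyltransferase RNA. It was at 50.5 FPKM (48.0 to 53.0) in the LPS library and 84.4 (81.0 to 87.7) in the unstimulated library. The ratio was 0.599 (0.562 to 0.638) and the change -0.73, with intervals far apart. Kat8, the catalytic subunit of the MSL and NSL complexes, was at 3.04 FPKM (2.40 to 3.67) in the LPS library and 6.17 (5.24 to 7.10) in the unstimulated library. Its ratio of 0.492 (0.380 to 0.637) was the lowest among the counted acetyltransferases, and its change was -0.83. Neither gene passed the size rule on the deposited FPKM, and Kat8 passed it after rescaling to TPM (-1.11).

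The paralogues p300 and CBP, the acetyltransferases most closely tied to active enhancers, were at low levels. Ep300, which encodes p300, was at 3.97 FPKM (3.68 to 4.25) in the LPS library and 4.70 (4.39 to 5.02) in the unstimulated library, a change of -0.20 whose sign turned under median scaling (0.04) and quantile normalisation (0.10). Crebbp, which encodes CBP, was at 1.03 FPKM (0.871 to 1.18) in the LPS library and 1.61 (1.41 to 1.81) in the unstimulated library, a change of -0.36. Ep300 therefore stood at 3.86 times the FPKM of Crebbp in the LPS library and 2.93 times in the unstimulated library. Both genes were lower in the LPS library with separate intervals, and neither reached the 1.5-fold limit.

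The SAGA and ATAC subunit Kat2a, also called GCN5, was at 19.1 FPKM (17.6 to 20.5) in the LPS library and 22.4 (20.8 to 24.0) in the unstimulated library, a change of -0.22. Its paralogue Kat2b, or PCAF, was at 2.38 FPKM (1.23 to 3.53) in the LPS library and 2.24 (1.89 to 2.59) in the unstimulated library, with overlapping intervals. Kat2a was thus the main paralogue of this pair in both libraries, at 8.01 times the FPKM of Kat2b in the LPS library and 10.0 times in the unstimulated library. Kat5, the TIP60 catalytic subunit that acetylates H4 and the H2A variant H2A.Z, was 1 of 2 acetyltransferases with a higher LPS value and separate intervals. It was at 35.8 FPKM (33.2 to 38.4) in the LPS library and 27.6 (25.5 to 29.7) in the unstimulated library, a ratio of 1.30 (1.17 to 1.44). A transcript without a symbol in the name table, NR_037603, covers 6694 bases of the Kat5 locus at 1.05 FPKM in the LPS library and 1.29 in the unstimulated library, so reads of the 2 may be split between them.

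The other acetyltransferase with a higher LPS value was Ncoa3, a coactivator of nuclear receptors for which acetyltransferase activity has been described. It was at 8.29 FPKM (7.84 to 8.73) in the LPS library and 6.20 (5.81 to 6.59) in the unstimulated library, a ratio of 1.34 (1.23 to 1.45). Its paralogues were at lower levels, near 1 FPKM. Ncoa1 was at 0.967 FPKM (0.814 to 1.12) in the LPS library and 1.59 (1.39 to 1.79) in the unstimulated library, with separate intervals. Ncoa2 was at 1.17 FPKM in the LPS library and 1.41 in the unstimulated library, with overlapping intervals. A transcript without a symbol, NM_001077695, covers 234925 bases of its locus at 1.25e-06 FPKM in the LPS library and 0.549 in the unstimulated library. The Ncoa2 value may leave out fragments assigned to that row, so the overlap of its intervals is uncertain. Ncoa3 and Ncoa1 therefore differed in direction.

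Kat7, or HBO1, which acetylates H3 and H4 with Brpf and Jade scaffolds, was at 4.14 FPKM (3.71 to 4.56) in the LPS library and 5.82 (5.34 to 6.29) in the unstimulated library, a change of -0.41. Kat6a, or MOZ, was level at 1.32 FPKM in the LPS library and 1.30 in the unstimulated library. Its paralogue Kat6b, or MORF, was at 0.260 FPKM (0.178 to 0.342) in the LPS library and 0.937 (0.780 to 1.09) in the unstimulated library, just short of the limit for counting. The Kat6b ratio of 0.278 (0.194 to 0.397) was the smallest among the acetyltransferases with a ratio, and the change of -0.62 is small only because the pseudocount weighs heavily at this level.

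The zinc-dependent deacetylases showed the widest split among the classes, with Hdac1 higher and Hdac2 and Hdac9 lower in the LPS library. Of 11 members 8 were counted, 1 of them fell, and their median change was -0.57, which is 0.34 below the median of all counted genes. That distance kept its sign in the 10 alternatives run, between -0.53 and -0.07. The summed FPKM of the class was nearly the same, at 145 in the LPS library and 143 in the unstimulated library. This is a ratio of 1.01, against 1.19 for all genes, and it was 0.852 after rescaling to TPM.

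Hdac1 and Hdac2, the paralogous catalytic subunits of the Sin3, NuRD and CoREST corepressor complexes, moved in opposite directions. Hdac1 (mm9 chr4:129193348-129219890) was at 87.4 FPKM (84.5 to 90.4) in the LPS library and 49.8 (47.5 to 52.1) in the unstimulated library, a ratio of 1.76 (1.66 to 1.86) and a change of 0.80. Hdac2 (mm9 chr10:36694350-36721694) was at 29.9 FPKM (28.2 to 31.6) in the LPS library and 54.2 (51.9 to 56.6) in the unstimulated library, a ratio of 0.551 (0.513 to 0.592) and a change of -0.84. The Hdac1 values come from 3565 implied fragments in the LPS library and 1933 in the unstimulated library, and the Hdac2 values from 1242 in the LPS library and 2145 in the unstimulated library, so counting error is small beside either difference. The FPKM of Hdac1 was 2.92 times that of Hdac2 in the LPS library and 0.918 times in the unstimulated library. Their sum was 117 FPKM in the LPS library and 104 in the unstimulated library. Hdac1 was thus the more abundant of the pair in the LPS library, whereas in the unstimulated library their intervals overlapped. Multiplying a whole library by 1 factor, as median scaling and TPM do, changes neither of these ratios. Hdac1 passed the size rule after median scaling (1.09) and Hdac2 after rescaling to TPM (-1.09), and both kept their signs in the alternatives run.

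Hdac3, the catalytic subunit of the NCoR and SMRT complexes, was at 18.6 FPKM (17.2 to 19.9) in the LPS library and 22.4 (20.9 to 23.9) in the unstimulated library, a ratio of 0.829 (0.751 to 0.914). Its sign turned under median scaling, at 0.02. Hdac8, the remaining class I enzyme, was at 3.11 FPKM (2.51 to 3.70) in the LPS library and 4.37 (3.65 to 5.10) in the unstimulated library, with overlapping intervals. Of the 4 class I genes, only Hdac1 was higher in the LPS library on the deposited FPKM.

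The class IIa deacetylases Hdac4, Hdac5, Hdac7 and Hdac9 leave the nucleus when phosphorylated and bind MEF2 transcription factors. The 3 with a value were at low levels and had lower values in the LPS library. Hdac9 (mm9 chr12:35056362-35213754) was at 1.22 FPKM (0.997 to 1.44) in the LPS library and 3.66 (3.27 to 4.06) in the unstimulated library, from 119 implied fragments in the LPS library and 340 in the unstimulated library. Its ratio was 0.333 (0.269 to 0.412) and its change -1.07, the largest of any counted member. It did not pass the size rule with a pseudocount of 5 (-0.48), after median scaling (-0.90) or after quantile normalisation (-0.73). Hdac4 was at 0.557 FPKM (0.396 to 0.718) in the LPS library and 1.41 (1.15 to 1.68) in the unstimulated library, a ratio of 0.394 (0.280 to 0.555). Hdac7 was at 0.0362 FPKM in the LPS library and 0.241 in the unstimulated library, with overlapping intervals and too few fragments for a ratio.

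Hdac5 has no value in the comparison because Cufflinks marked both of its transcript rows in the LPS library as failed. The main one, NM_010412, is listed there at 1.24 FPKM with an interval of 0 to 3.71, and it was at 6.08 FPKM (5.53 to 6.64) in the unstimulated library. Hdac6, the cytoplasmic tubulin deacetylase, was at 1.32 FPKM (1.08 to 1.57) in the LPS library and 2.32 (1.99 to 2.65) in the unstimulated library. Hdac11 was listed at 0 in both libraries.

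Hdac10, a polyamine deacetylase, is the member whose value depends most on its transcripts. Summed over its 4 rows it was at 2.68 FPKM (2.17 to 3.19) in the LPS library and 5.04 (4.31 to 5.77) in the unstimulated library, a change of -0.72. The protein-coding row NM_199198 was at 2.40 FPKM (1.93 to 2.88) in the LPS library and 0.666 (0.347 to 0.985) in the unstimulated library. The non-coding row NR_028449 was near 0 in the LPS library, with an upper bound of 0.0347 FPKM, and at 3.78 (3.20 to 4.35) in the unstimulated library. On coding rows alone the change is 1.03, so the direction for Hdac10 reverses with the rows used.

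**Figure D2:**
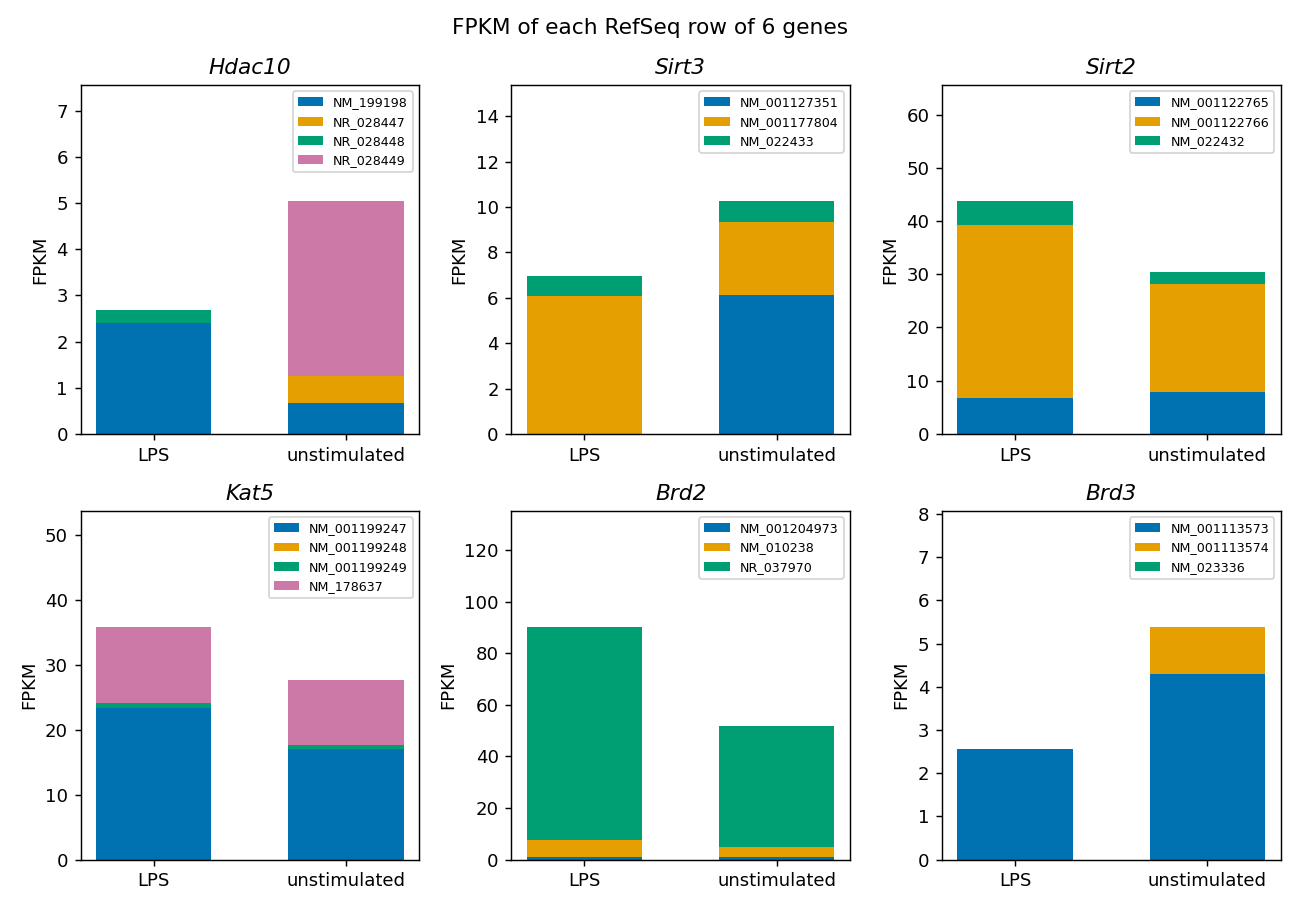
FPKM of each RefSeq transcript row (colours) stacked for 6 genes, in the LPS library (left bar) and the unstimulated library (right bar). In Hdac10 and Sirt3 a different row leads in each library, whereas in Brd2 the row NR_037970 carries most of the value in both.

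No counted sirtuin passed the size rule or the 1.5-fold limit. Of 6 members 5 were counted, all but Sirt1 on the rows matched to its symbol. The median change was -0.07, which is 0.17 above that of all counted genes. The summed FPKM was 75.1 in the LPS library and 65.9 in the unstimulated library, a ratio of 1.14 against 1.19 for all genes, and below 1 after rescaling to TPM (0.962).

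Sirt2, a mainly cytoplasmic deacetylase of tubulin that also reaches histone H4, was the most abundant sirtuin RNA. It was at 43.7 FPKM (40.5 to 46.9) in the LPS library and 30.5 (27.9 to 33.1) in the unstimulated library, a ratio of 1.43 (1.28 to 1.61). Most of the difference lay in the row NM_001122766, at 32.7 FPKM in the LPS library and 20.2 in the unstimulated library. Sirt2 was the 1 sirtuin with separate intervals, and it was higher in the LPS library.

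The nuclear sirtuins were close in both libraries. Sirt7, a nucleolar deacetylase of H3, was at 14.1 FPKM (12.8 to 15.3) in the LPS library and 14.8 (13.4 to 16.1) in the unstimulated library. Sirt6, a chromatin-bound deacetylase of H3, was at 6.56 FPKM (5.43 to 7.68) in the LPS library and 5.78 (4.76 to 6.81) in the unstimulated library, with overlapping intervals. Sirt1 was at 0.430 FPKM (0.240 to 0.620) in the LPS library and 0.553 (0.333 to 0.773) in the unstimulated library. A transcript without a symbol in the name table, NM_001159590, covers 19991 bases of the Sirt1 locus at 3.08 FPKM in the LPS library and 3.62 in the unstimulated library, so the Sirt1 value may leave out fragments assigned to that row.

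The mitochondrial sirtuins act on proteins outside chromatin and were not separated between the libraries. Sirt3 was at 6.94 FPKM in the LPS library, with a wide interval of 1.24 to 12.6, and 10.3 (8.73 to 11.8) in the unstimulated library. Its row NM_001127351 was at 0.000974 FPKM in the LPS library and 6.13 (5.00 to 7.26) in the unstimulated library, while NM_001177804 was at 6.09 (1.98 to 10.2) in the LPS library and 3.22 (2.32 to 4.13) in the unstimulated library. The sum gives a change of -0.50 and NM_001177804 on its own 0.75, so the direction for Sirt3 turns with the row used. Sirt5 was at 3.41 FPKM (2.69 to 4.12) in the LPS library and 4.05 (3.25 to 4.85) in the unstimulated library. Between rows of near-identical transcripts the assignment of fragments is an estimate, so the exchange of rows in Sirt3 is less certain than the sum. A different row led in the 2 libraries for 3 of the 8 members with 2 or more rows at 1 FPKM or above, Hdac10, Sirt3 and Sirt6, and for 242 of 1211 such genes in all (19.98%).

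Of the 8 bromodomain reader RNAs, 5 were lower in the LPS library with separate intervals and Brd2 was higher, while Brd9 and Brpf3 had overlapping intervals. Among all counted genes, 48.4% were lower in the LPS library with separate intervals and 25.1% were higher. All 8 readers were counted, 0 passed the size rule, and their median change was -0.43, which is 0.19 below that of all counted genes. The summed FPKM was 174 in the LPS library and 163 in the unstimulated library. The ratio was 1.07, against 1.19 for all genes, and below 1 after rescaling to TPM (0.905). Without Brd2 the other 7 readers summed to 84.2 FPKM in the LPS library and 111 in the unstimulated library. On protein-coding rows alone the ratio of the sums was 0.789 in place of 1.07.

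Brd2 and Brd3, both BET proteins that bind acetylated histone H4 and carry transcription regulators to chromatin, moved apart. Brd2 (mm9 chr17:34248964-34259552) was at 90.1 FPKM (88.1 to 92.2) in the LPS library and 51.6 (50.0 to 53.2) in the unstimulated library, a ratio of 1.75 (1.68 to 1.82) and a change of 0.79. Brd3 (mm9 chr2:27301101-27331193) was at 2.56 FPKM (2.26 to 2.85) in the LPS library and 5.39 (4.78 to 5.99) in the unstimulated library, a ratio of 0.475 (0.404 to 0.558) and a change of -0.84. The Brd3 row NM_001113574 was near 0 in the LPS library and at 1.09 FPKM in the unstimulated library, 20.3% of the gene there. The leading row NM_001113573 was at 2.56 FPKM in the LPS library and 4.29 (3.86 to 4.72) in the unstimulated library, a smaller difference in the same direction. The FPKM of Brd2 was 35.3 times that of Brd3 in the LPS library and 9.58 times in the unstimulated library. Brd2 was thus the more abundant of the pair in both libraries.

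The Brd2 value is carried by a row that RefSeq lists as non-coding. NR_037970 was at 82.7 FPKM (80.8 to 84.7) in the LPS library and 46.5 (45.0 to 48.0) in the unstimulated library, which is 91.8% of the gene in the LPS library and 90.1% in the unstimulated library. The protein-coding row NM_010238 was at 6.28 FPKM (5.59 to 6.98) in the LPS library and 4.15 (3.57 to 4.72) in the unstimulated library, and NM_001204973, whose promoter window is printed above, was at 1.15 (0.857 to 1.45) in the LPS library and 0.947 (0.674 to 1.22) in the unstimulated library. The start of NR_037970 lies 1847 bases downstream of the start of NM_010238 and 2707 bases downstream of that of NM_001204973, in mm9 and in GRCm38 alike. On the coding rows alone the change was 0.47 in place of 0.79. The 2 leading rows were higher in the LPS library, and how many of the fragments of NR_037970 come from coding transcripts was not tested.

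Brd7, a subunit of the PBAF remodelling complex, was the most abundant reader of the unstimulated library and second to Brd2 in the LPS library. It was at 43.5 FPKM (41.6 to 45.3) in the LPS library and 62.9 (60.6 to 65.2) in the unstimulated library. Its ratio was 0.690 (0.653 to 0.731). Brd9, a subunit of a different BAF complex, was at 23.1 FPKM (21.8 to 24.5) in the LPS library and 20.7 (19.4 to 22.0) in the unstimulated library, with overlapping intervals. Brd8, a subunit of the TIP60 complex, was at 3.64 FPKM (3.27 to 4.02) in the LPS library and 6.24 (5.73 to 6.74) in the unstimulated library, while the catalytic subunit Kat5 described above was higher in the LPS library.

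Brd1, Brpf1 and Brpf3 are scaffolds that tie Kat6a, Kat6b and Kat7 to chromatin. Brd1 was at 5.11 FPKM (4.69 to 5.54) in the LPS library and 8.25 (7.70 to 8.80) in the unstimulated library, a ratio of 0.620 (0.557 to 0.690). Brpf1 was at 3.50 FPKM (3.12 to 3.88) in the LPS library and 4.67 (4.23 to 5.12) in the unstimulated library. Brpf3 was at 2.82 FPKM in both libraries (2.53 to 3.11 in the LPS library and 2.52 to 3.12 in the unstimulated library). Brd1 and Brpf1 thus had separate intervals, and Brpf3 did not.

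**Figure D3:**
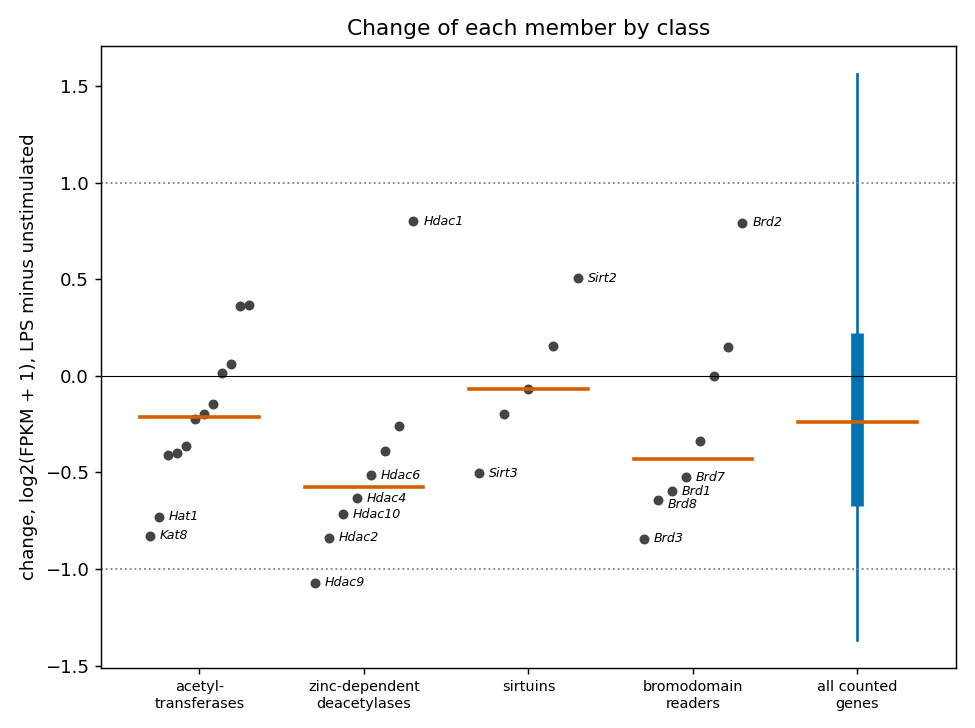
Change of each counted member on the log2(FPKM + 1) scale, LPS minus unstimulated, by class (points), with the class median (orange line), beside all counted genes (line, 5th to 95th percentile, and bar, 25th to 75th). Dotted lines mark the size rule, which Hdac9 alone passes. All counted members lie between the 5th and 95th percentiles of all genes, -1.36 and 1.56.

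Genes that work with the members were described by lists, chosen with earlier results of these data known. Of 50 counted acetyltransferase complex subunits, 0 rose and 5 fell, with a median change of -0.31. Ing4, a reader of methylated H3 in the HBO1 complex, fell to 3.65 FPKM (2.98 to 4.32) in the LPS library, against 11.2 (10.0 to 12.4) in the unstimulated library. Tada2a, a subunit of the ATAC complex of Kat2a, fell to 6.77 FPKM in the LPS library, against 16.5 in the unstimulated library. Jade1, a scaffold of the HBO1 complex, fell to 0.797 FPKM in the LPS library, against 2.87 in the unstimulated library. Of all counted genes, 8.54% rose and 12.4% fell, with a median change of -0.24. The share of this list that fell, 5 of 50, is near the 12.4% of all genes.

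Among 37 counted subunits of deacetylase corepressor complexes, 1 rose and 2 fell, against 8.54% and 12.4% of all counted genes. Their median change was -0.23, against -0.24 for all counted genes. Sap30, a subunit of the Sin3 complex that holds Hdac1 and Hdac2, rose to 243 FPKM (236 to 250) in the LPS library, against 110 (106 to 115) in the unstimulated library, a change of 1.13 that was 0.89 in TPM and 0.85 with quantile normalisation. Ing2, of the same complex, fell to 0.764 FPKM in the LPS library, against 3.00 in the unstimulated library. Mideas, of a further class I deacetylase complex, fell to 0.874 FPKM in the LPS library, against 3.23 in the unstimulated library, where its interval of 0 to 7.58 covers the LPS value.

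The other acetyl-lysine readers spread most widely. Of 25 counted, 4 rose and 5 fell, against 8.54% and 12.4% of all counted genes. Their median change was -0.57, against -0.24 for all counted genes. The genes that rose furthest were Sp100, Sp110 and Sp140, nuclear body proteins of 1 family that are known as interferon-stimulated genes. Mouse Sp100 has near-identical repeated copies, so fragments of this family may be split between genes and the values are uncertain. Sp100, Sp110 and Sp140 were at 27.6, 281 and 116 FPKM in the LPS library, against 0.699, 20.8 and 8.07 FPKM in the unstimulated library, with changes of 4.08, 3.70 and 3.69. Atad2, a reader linked to DNA replication, fell to 1.08 FPKM (0.899 to 1.27) in the LPS library, against 10.4 (9.81 to 11.0) in the unstimulated library, a change of -2.45. Zmynd8 fell to 3.97 FPKM in the LPS library, against 12.3 in the unstimulated library, and the remodelling subunit Baz1b to 7.61 in the LPS library, against 18.8 in the unstimulated library. All 8 bromodomain readers among the members had smaller changes than these 6 genes.

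Among 12 counted genes of acetyl-CoA and NAD supply, 2 rose and 1 fell, against 8.54% and 12.4% of all counted genes. Their median change was -0.22, against -0.24 for all counted genes. Cd38, which consumes NAD, the cosubstrate of the sirtuins, rose to 9.18 FPKM (8.42 to 9.93) in the LPS library, against 1.14 (0.869 to 1.41) in the unstimulated library. Nadk, which turns NAD into NADP, was at 36.5 FPKM in the LPS library and 16.6 in the unstimulated library, where its interval of 0 to 39.2 covers the LPS value. Parp1, another consumer of NAD, fell to 13.0 FPKM in the LPS library, against 35.6 in the unstimulated library.

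Of 16 counted partners and kinases of the class IIa deacetylases, 0 rose and 3 fell, against 8.54% and 12.4% of all counted genes. Their median change was -0.18, against -0.24 for all counted genes. Mef2c, a transcription factor that class IIa deacetylases bind, fell to 0.908 FPKM (0.712 to 1.10) in the LPS library, against 8.79 (8.16 to 9.42) in the unstimulated library. Its paralogue Mef2d fell to 11.0 FPKM in the LPS library, against 25.2 in the unstimulated library, and the salt-inducible kinase gene Sik1 to 0.815 in the LPS library, against 2.75 in the unstimulated library. Hdac9, Mef2c and Mef2d were therefore all past the size rule in the same direction on the deposited FPKM. Of these 3, Mef2c alone also passed it with a pseudocount of 5 and under all 3 scalings. The list as a whole did not share this direction. Mef2a stayed within the rule, with a change of -0.42, and Mef2b was not counted. Of the 16 counted genes, 7 had a change above 0 and 9 below 0, and the highest was Ywhaz, at 0.91.

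**Figure D4:**
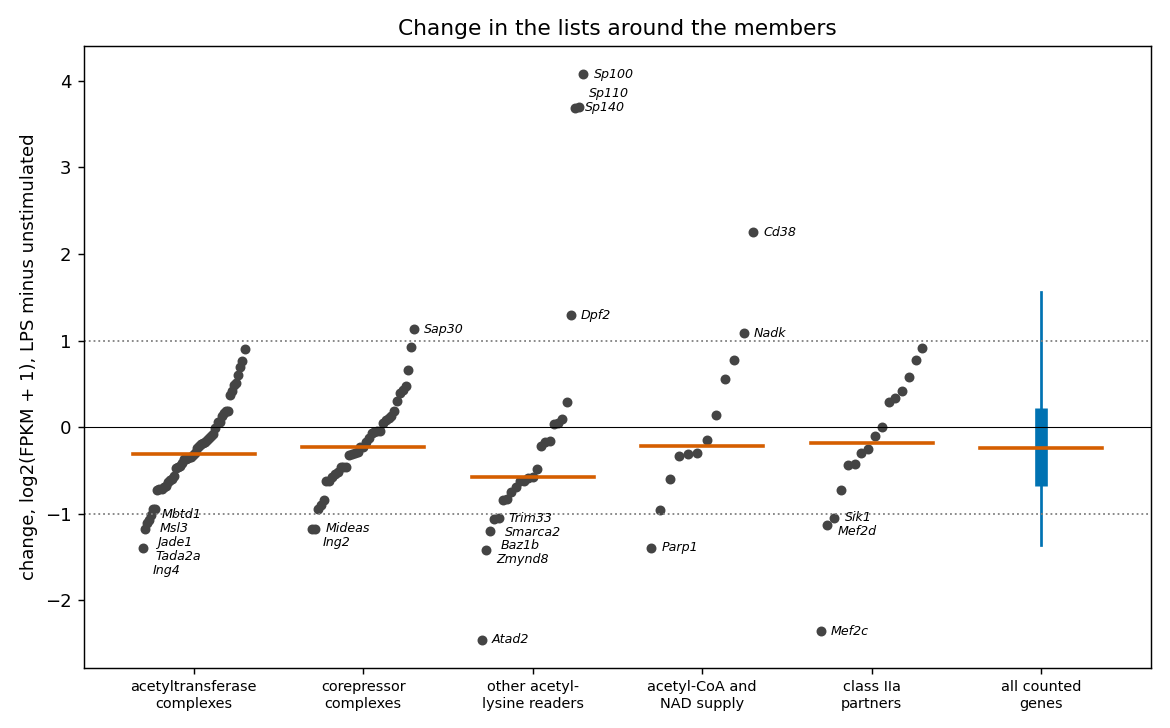
Change of each counted gene on the log2(FPKM + 1) scale, LPS minus unstimulated, for 5 lists of genes that work with the members (points), with the list median (orange line), beside all counted genes (line, 5th to 95th percentile, and bar, 25th to 75th). Dotted lines mark the size rule. Sp100, Sp110 and Sp140 lie above all other genes of these lists, and Atad2 and Mef2c lie below them.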

How the data were processed

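For each of the 2 libraries the authors deposited a table of FPKM values per RefSeq transcript and locus beside an interval (95%) and a status per row. Cufflinks made them on build mm9, per the submitters' processing notes. Neither the aligner nor its options were given in these sources. Per the labels' protocols, reads were 76 bases from a strand-specific kit.

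Of 28246 rows, 391 without status OK in both libraries and 711 rows of small RNA genes were left out. Symbols came from a RefSeq table of GRCm38.p6, which matched 27560 rows (97.6%). Rows of a symbol were summed and half-widths combined in quadrature. Starts are written 1-based. Implied fragments, from the FPKM and its half-width of 2 standard deviations, summed to 16930000 in the LPS library and 13800000 in the unstimulated library. Ratios carry no pseudocount, combine both intervals, and are left out at 3 or fewer implied fragments. Intervals cover counting and assignment only.

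The steps were tested on simulated data and run in Python 3.11.15 with pandas 2.3.3 and numpy 2.4.6. The members and lists were chosen with earlier results of these data known. Every counted member is named, and of each list up to 3 genes per direction with the largest changes past the size rule. Alternatives covered the pseudocount, scaling, filter, row status and choice of rows.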

Additional observations from a re-analysis of the deposited data

How the results depend on the processing

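No paired analysis was possible because each group had 1 library, and for the same reason no library could be left out. Of 33 counted members, 20 kept the sign of their change in all alternatives run. The cause of the differences between settings was not tested. Medians below are relative to that of all counted genes. With a pseudocount of 0.1, 3 members fell and the deacetylase median was -0.53. Of the lists, 1 acetyltransferase complex gene rose and 8 fell, and 5 corepressor genes, 8 other readers and 2 acetyl-CoA and NAD genes fell. With a pseudocount of 5, 0 members fell and 2 passed 1.5-fold downward, the deacetylase median was -0.072 and that of other readers -0.12. Then 0 acetyltransferase complex, 0 corepressor, 1 other reader and 1 class IIa partner gene fell, and 1 acetyl-CoA and NAD gene rose. After TPM, 4 members fell (Kat8, Hdac2, Hdac9 and Brd3), 0 passed 1.5-fold upward and 16 downward, and the ratios of summed values were 0.669 for acetyltransferases, 0.852 for deacetylases, 0.962 for sirtuins and 0.905 for readers. In the lists 9 acetyltransferase complex, 5 corepressor, 8 other reader and 2 acetyl-CoA and NAD genes fell, while 0 corepressor genes and 1 acetyl-CoA and NAD gene rose. After median scaling, 2 members rose (Hdac1 and Brd2) and 0 fell, and 5 passed 1.5-fold upward and 3 downward. Then 2 acetyltransferase complex, 2 corepressor and 2 class IIa partner genes rose, and 1, 2 and 1 of the acetyltransferase complex, other reader and class IIa partner genes fell. After quantile normalisation, 0 members fell and 4 passed 1.5-fold downward, and the medians were 0.090 for all members (against -0.098 on the deposited FPKM), -0.17 for deacetylases and -0.14 for other readers. Of the acetyltransferase complex genes 1 rose and 3 fell, of corepressor genes 0 rose and 0 fell, and 3 other readers fell. With no filter the medians were 0.013 for sirtuins, -0.12 for acetyltransferases and -0.19 for all members. With a filter at 5 FPKM, 0 members fell, the medians were -0.18 for acetyltransferases, -0.42 for readers and -0.20 for all members, and 3 acetyltransferase complex and 0 corepressor genes fell. With rows of any status, 2 members fell (Hdac5, at -1.65, and Hdac9). With the highest row per symbol, 2 members fell (Hdac9 and Hdac10, at -2.26), 4 passed 1.5-fold upward and 4 corepressor genes fell. With protein-coding rows alone, a setting chosen after seeing the data, 1 member rose (Hdac10, reversed to 1.03) and the ratio of summed reader FPKM was 0.789. Depth limits the low members: the Hdac4 values come from 48.0 fragments (LPS) and 116 fragments (unstimulated).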
